A study of Homo sapiens with 4 samples.

Results

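The simple epithelial keratins KRT8, KRT18, KRT19 and KRT7 were examined in RNA-seq of untreated HaCaT keratinocytes. They were taken by gene symbol and not by a cut on measured values, though with earlier results of these data known. They make up 4 of the 44591 genes in the count tables, 4 of the 19233 protein-coding genes and 4 of the 55 protein-coding keratins. HaCaT is a spontaneously immortalized keratinocyte line of human skin, a single line grown in medium with fetal bovine serum (12% per the labels, 10% per the study's methods). The data are 4 libraries of total RNA (replicates 1 to 4), which the study called biological repeats, and all of them belong to 1 group, with no genetic change, no treatment and no control group. The comparisons are therefore between keratins within a library and between libraries. How RNA classes were selected for the libraries is not given in the sources used here.

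Keratins are intermediate filament proteins that assemble as heteropolymers, a type I chain paired with a type II chain. KRT8 (type II) and KRT18 (type I) are the first pair of the embryo and the main pair of simple, single-layered epithelia such as liver and gut, with KRT7 (type II) and KRT19 (type I) added in ducts and glands. Adult interfollicular epidermis uses KRT5 and KRT14 in its basal layer and largely lacks KRT8 and KRT18, which appear in cultured and transformed keratinocytes.

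Keratins share the plan of a central rod between a head and a tail. The coding sequence from the helix termination motif, the conserved end of the rod, to the stop codon is shown for KRT18, KRT19 and KRT7 to show their tails (spliced, 5′ to 3′, 1 GENCODE release 29 transcript per gene, on GRCh38). Capitals mark the 7 codons of the motif. KRT18 ends within chr12:52952305-52952842 on the plus strand, in exons 7 to 8. KRT19 ends within chr17:41523743-41523811 on the minus strand, in exon 6. KRT7 ends within chr12:52245598-52248760 on the plus strand, in exons 7 to 9.
KRT18: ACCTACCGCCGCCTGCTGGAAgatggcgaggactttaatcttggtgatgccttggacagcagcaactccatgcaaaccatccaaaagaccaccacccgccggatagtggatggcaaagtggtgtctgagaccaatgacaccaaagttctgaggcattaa
KRT19: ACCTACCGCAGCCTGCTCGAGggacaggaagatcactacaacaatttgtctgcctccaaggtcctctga
KRT7: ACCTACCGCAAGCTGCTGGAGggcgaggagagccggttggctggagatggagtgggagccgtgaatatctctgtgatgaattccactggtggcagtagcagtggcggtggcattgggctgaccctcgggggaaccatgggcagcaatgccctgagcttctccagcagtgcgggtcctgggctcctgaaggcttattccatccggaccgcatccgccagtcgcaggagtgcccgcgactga
After the motif KRT7 has 72 residues and KRT18 45, while KRT19, known as the keratin without a proper tail, has 15. Over the coding bases that aligned without a gap, the type II members KRT8 and KRT7 were 76.2% identical and the type I members KRT18 and KRT19 66.6%. Across the types, identity was 59.7% (KRT18 and KRT7) to 65.2% (KRT19 and KRT7). The encoded proteins hold 483 residues (KRT8), 469 (KRT7), 430 (KRT18) and 400 (KRT19).

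KRT18 is also a known substrate of caspases, which cut it in the linker of the rod and in the tail during apoptosis. Both places are shown because caspases are among the genes measured, with the 4 codons that are recognized in capitals (chr12:52951526-52951537 in exon 5, codons 235 to 238, and chr12:52952729-52952740 in exon 8, codons 394 to 397, GRCh38, plus strand).
KRT18 linker site: gggttgaccGTGGAGGTAGATgcccccaaa
KRT18 tail site: aatcttggtGATGCCTTGGACagcagcaac
The amino acids of the linker site also occurred 1 time in KRT19 and not in KRT8 or KRT7. Those of the tail site occurred in KRT18 and in no other member.

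The libraries held 17056035 to 73082279 counts, and replicate 1, the deepest, stood apart from the rest. Protein-coding genes took 76.1% of the counts of replicate 1 and 95.3% to 96.4% of those of replicates 2 to 4, which by TPM (transcripts per 1000000) over all genes was 31.0% against 87.4% to 93.0%. For this reason levels are given as TPM over protein-coding genes (counts per length, scaled to 1000000 per library), and the main results are also given without replicate 1. Of 10 keratinocyte markers, 10 had a mean of at least 1 TPM (summed level 9620 to 16190 TPM, most of it KRT14 and KRT5). So did 7 of 8 markers of simple or glandular epithelium (summed level 938 to 1687 TPM), led by CLDN7, a tight junction claudin (358 ± 102, SD, n = 4), while PROM1 had 0 counts in all 4. Among the markers of Merkel cells, skin cells that carry simple keratins in vivo, ATOH1 had 0 counts in all 4 libraries. The list summed to 16.2 to 41.2 TPM, most of it SOX2 (11.2 to 37.3), and its member KRT20 had 2.94 TPM in replicate 1 and 0 in replicates 2 to 4. The summed TPM was 0.155 to 1.78 for hepatocyte, 0.223 to 0.803 for intestinal and 25.9 to 85.3 for mesothelium markers, with TTR and WT1 at 0 and CALB2 (9.30 to 57.8) the highest. It was 5.20 to 9.60 for fibroblast, 3.74 to 9.12 for melanocyte (TYR at 0), 0.859 to 2.36 for endothelium (PECAM1 at 0) and 8.31 to 43.9 for immune markers (CD68 7.94 to 43.9, PTPRC at most 0.0166), and the part of such cells in the keratin levels was not tested. In bulk samples, fewer cells of a type and less RNA per cell cannot be told apart.

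All 4 members were abundant in every library. Their counts ranged from 13208 (KRT18, replicate 4) to 239373 (KRT19, replicate 1), so counting error was small beside the spread between libraries, and together they took 0.663% to 0.809% of the protein-coding counts. By mean TPM, KRT19 ranked 18 of the 12165 protein-coding genes with a mean of at least 1, KRT8 46, KRT7 48 and KRT18 123. The median of those genes was 24.5 TPM.

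KRT19 (chr17:39679869-39684641, hg19) had 6697, 3008, 2260 and 3548 TPM in the order of replicates 1 to 4. Its mean was 3878 ± 1952 (SD, n = 4). Replicate 1 was higher than the rest, and without it the mean was 2939 ± 647 (n = 3). KRT19 was the most abundant member in 3 of 4 libraries with the deposited gene lengths.

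KRT8 (chr12:53290971-53343650) had 1095, 2876, 3266 and 2328 TPM, a mean of 2391 ± 946 (SD, n = 4). Here replicate 1 was the lowest, and the mean without it was 2824 ± 471 (n = 3). KRT7 (chr12:52626954-52642709) had 1272, 2501, 2379 and 3277 TPM, a mean of 2357 ± 826 (SD, n = 4), again with replicate 1 lowest and 2719 ± 487 (n = 3) without it. These type II members thus had nearly the same mean.

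KRT18 (chr12:53342655-53346685), the type I partner of KRT8, was the lowest member in 4 of 4 libraries. Its values were 444, 1418, 1456 and 1155 TPM, a mean of 1118 ± 469 (SD, n = 4) and of 1343 ± 164 (n = 3) without replicate 1.

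**Figure D1:**
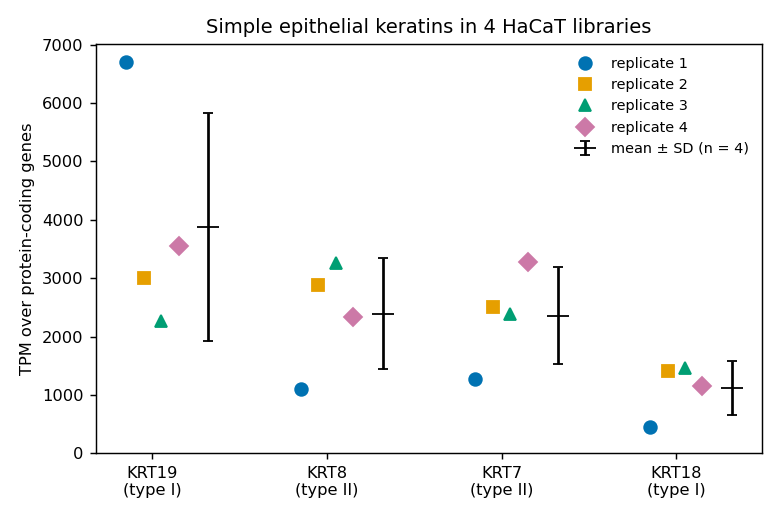
TPM over protein-coding genes (linear axis) of the 4 simple keratins, 1 point per HaCaT library, with the mean and SD over 4 libraries as bars. Replicate 1 is the highest point of KRT19, at 6697, and the lowest point of KRT8, KRT7 and KRT18, at 1095, 1272 and 444.

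The order of the means was KRT19, KRT8, KRT7, KRT18, and only replicate 2 showed this order in full. KRT19 was followed by KRT7 in replicates 1 and 4, and replicate 3 ran KRT8, KRT7, KRT19, KRT18. Differences were tested within libraries, on the log2(TPM + 1) scale, with a two-sided exact sign-flip permutation test over the 4 libraries, whose smallest possible p is 0.125. No pair could therefore reach 0.05, and the number of libraries that share a direction is given beside each p.

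KRT8 exceeded KRT18 in 4 of 4 libraries, by 1.30, 1.02, 1.17 and 1.01 on the log2 scale, a mean of 1.12 ± 0.14 (SD, n = 4, exact permutation p = 0.125, 0.25 adjusted by Benjamini-Hochberg over the 6 pairs of members). This was the pair with the smallest spread of the 6, and the mean without replicate 1 was 1.07 ± 0.09 (n = 3). Its size depended on the gene length used, from 0.59 with the union of annotated exons to 1.52 with the coding length and 1.68 with no length correction, positive in each. KRT7 exceeded KRT18 by 1.14 ± 0.43 and KRT19 exceeded it by 1.81 ± 1.46, also in 4 of 4 libraries (exact permutation p = 0.125, adjusted 0.25, for each). Without replicate 1 these differences were 1.01 ± 0.43 and 1.11 ± 0.49 (n = 3). So the lowest place of KRT18 was kept in every library, whatever the other member.

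With the union of annotated exons, KRT19 was the highest member in every library. With the deposited lengths, KRT19, KRT8 and KRT7, all above KRT18, could not be ordered beyond their spread. KRT19 minus KRT8 was 0.69 ± 1.36 (higher in 3 of 4 libraries, exact permutation p = 0.375, adjusted 0.45), which became 0.05 ± 0.57 (n = 3) without replicate 1. KRT7 minus KRT19 was -0.68 ± 1.16 (lower in 3 of 4 libraries, exact permutation p = 0.25, adjusted 0.375), or -0.10 ± 0.17 (n = 3) without replicate 1. KRT8 minus KRT7 was -0.01 ± 0.42, positive in 2 libraries and negative in 2 (exact permutation p = 0.875, adjusted 0.875), and its sign turned with the length used and with the library left out (values with the alternatives).

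As a ratio of TPM within a library, KRT8 to KRT18 was 2.46 (95% Clopper-Pearson interval 2.42 to 2.51), 2.03 (1.99 to 2.07), 2.24 (2.21 to 2.28) and 2.02 (1.98 to 2.06) in replicates 1 to 4. The intervals cover counting error only. Those of replicates 2 and 4 overlapped and the remaining ones stood alone, so the libraries differed by more than counting error within a range of 1.22 times.

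KRT7 to KRT19, the second type II to type I pair, was far less even. Replicate 1 had a ratio of 0.190 (0.188 to 0.192). In replicates 2, 3 and 4 it was 0.832 (0.818 to 0.845), 1.05 (1.04 to 1.07) and 0.924 (0.911 to 0.936). Replicate 1 lay below the rest, and the range was 5.54 times. KRT8 to KRT7, the type II members, was 0.861, 1.15, 1.37 and 0.711, above 1 in replicates 2 and 3.

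**Figure D2:**
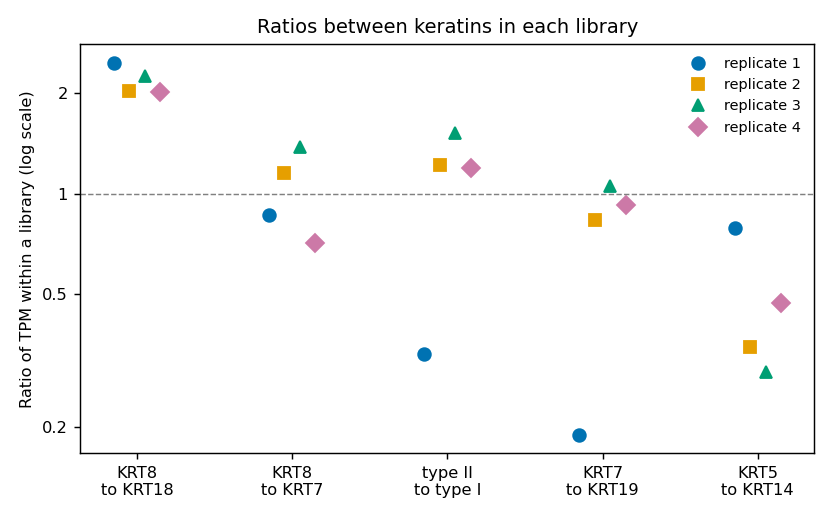
Ratios of TPM within a library on a log axis, 1 point per HaCaT library, with a dashed line at a ratio of 1. KRT8 to KRT18 stays between 2.02 and 2.46, KRT7 to KRT19 runs from 0.190 to 1.05, and the basal pair KRT5 to KRT14 from 0.293 to 0.791.

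Summed by type, the type II members (KRT8 and KRT7) had 2366, 5377, 5645 and 5605 TPM, so that replicates 2 to 4 lay close together and replicate 1 far below. The type I members (KRT18 and KRT19) had 7141, 4425, 3716 and 4703 TPM, with replicate 1 above the others. Type II minus type I was -0.11 ± 1.00 on the log2 scale (SD, n = 4), negative in replicate 1 (-1.59) and 0.25 to 0.60 in the other 3 libraries, where the mean was 0.38 ± 0.19 (n = 3). This depended on the gene length, since with the union of annotated exons the difference was negative in every library. KRT19 alone made up 70.4% of the summed TPM of the members in replicate 1 and 24.1% to 34.4% in the others.

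The sum of all 4 members was 9508, 9802, 9361 and 10308 TPM, a mean of 9745 ± 418 (SD, n = 4), with a coefficient of variation of 4.29%, against 35.0% to 50.3% for single members. Without replicate 1 it was 9824 ± 474 (n = 3), a coefficient of 4.83% against 12.2% to 22.0%. This evenness depended on the denominator. With TPM over all genes, replicate 1 had a sum of 2943, below the 8186 to 9585 of the rest, a coefficient of variation of 40.7%, while under the other scalings and lengths the coefficient was 4.27% to 10.9%.

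**Figure D3:**
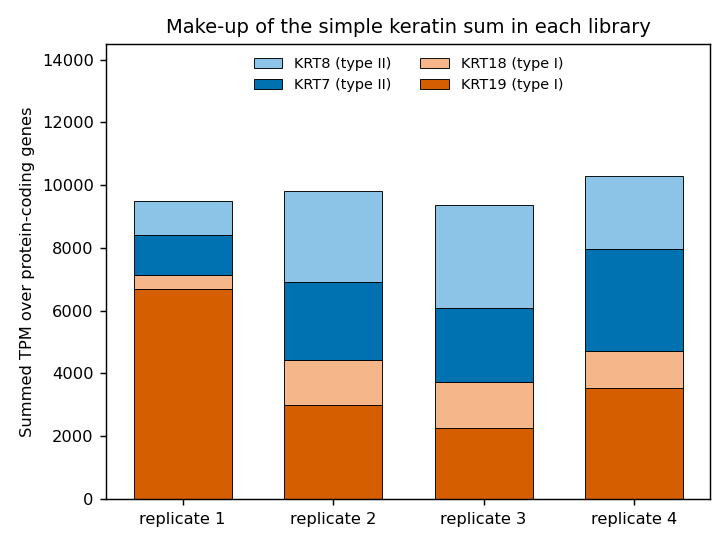
Stacked bars of TPM over protein-coding genes of the 4 members in each HaCaT library (type I in orange, type II in blue, linear axis from 0). The bars are of nearly equal height, 9361 to 10308, and the KRT19 part is 6697 in replicate 1 and 2260 to 3548 in replicates 2 to 4.

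Against the mean of the other 3 libraries on the log2(TPM + 1) scale, replicate 1 differed by -1.35 for KRT8, -1.59 for KRT18, -1.08 for KRT7 and 1.21 for KRT19. Replicate 1 lay below every other library for 3 of the 4 members and above every other for 1. Such positions were common, since replicate 1 was below every other library for 37.4% of the 12165 protein-coding genes with a mean of at least 1 TPM and above every other for 40.2%, and nothing particular to the members follows. The median difference over all those genes was 0.03. For genes of like GC content (GC of a representative transcript, 594 or 595 genes in each of 4 of 20 bins) it was -0.57 at the GC content of KRT8 (60.3%), -0.56 at that of KRT18 (58.5%), -0.62 at that of KRT19 (61.8%) and -0.76 at that of KRT7 (62.9%). These medians were negative, as were the differences of KRT8, KRT18 and KRT7, while that of KRT19 was positive. Within its bin, the difference of KRT8 lay at percentile 25.1, that of KRT18 at 17.1, of KRT7 at 37.9 and of KRT19 at 94.8. The part of GC content was not tested. With TPM over all genes, KRT19 too was lower in replicate 1 than the mean of the others (2073 TPM against 2666, 1976 and 3299, a fold of 0.800 on the log2 mean), while under the other scalings and lengths replicate 1 was at 2.26 to 2.36 times that mean.

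Among all protein-coding keratins the members took 18.3%, 35.2%, 42.4% and 40.4% of the summed keratin TPM in replicates 1 to 4. The mean was 34.1% ± 10.9 (SD, n = 4) and of 39.4% ± 3.71 (n = 3) without replicate 1. The low share of replicate 1 went with a larger sum of the other keratins, 42340 TPM against 12705 to 18017. Set against the basal keratins KRT5, KRT14 and KRT15, the members were lower by 1.41 on the log2 scale in replicate 1 and differed by -0.13, 0.10 and -0.05 in replicates 2 to 4. The mean of simple minus basal was -0.37 ± 0.70 (SD, n = 4), and -0.03 ± 0.12 (n = 3) without replicate 1, a ratio of 0.984 ± 0.0838.

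By mean TPM the members ranked 2 (KRT19), 6 (KRT8), 7 (KRT7) and 10 (KRT18) of the keratins. KRT14, the type I keratin of the basal layer, was first and the most even, with 6824, 7642, 6547 and 6375 TPM. Its partner KRT5 had 5396, 2660, 1920 and 3000 TPM, so KRT5 to KRT14 ran from 0.293 to 0.791, wider than KRT8 to KRT18. KRT17 (2336 ± 1104, SD, n = 4) and KRT6A (1558 ± 538), keratins of stressed and wounded epidermis, ranked between KRT7 and KRT18.

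Of the 18 keratins outside the members with a mean of at least 1 TPM, replicate 1 was above every other library for 12 and below every other for 3 (40.2% and 37.4% over all genes). KRT15, a type I keratin of basal cells, had 13064 TPM in replicate 1 against 239 to 1308, and KRT13, a mucosal type I keratin, 9870 against 616 to 1900. KRT4, the type II partner of KRT13, had 2359 against 29.2 to 123. Replicate 1 was also the highest for KRT10, the suprabasal type I keratin (229 TPM against 31.3 to 52.4), and for KRT16 (140 against 7.81 to 19.2). KRT19 thus had its highest value in the same library as these keratins. KRT8, KRT18 and KRT7 had their lowest there, as did KRT80 (17.8 TPM against 104 to 156).

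**Figure D4:**
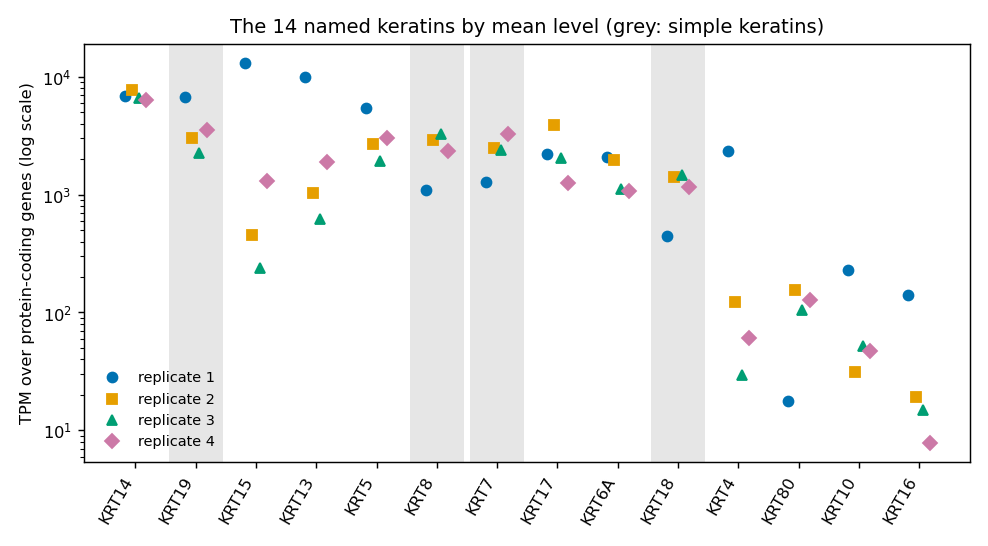
TPM over protein-coding genes (log axis) of the 4 members (grey bands) and the 10 other keratins with the highest means, ordered by mean, 1 point per HaCaT library. KRT8, KRT7 and KRT18 have their lowest point in replicate 1, while KRT19, KRT15, KRT13, KRT5 and KRT4 have their highest there, 13064 for KRT15.

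KRT19 lies beside KRT15 and KRT13 in the type I cluster on chromosome 17 (hg19), 4598 bases from KRT15 and 18003 from KRT13. The ratio of KRT15 to KRT19 was 1.95 in replicate 1 against 0.106 to 0.369, and that of KRT13 to KRT19 was 1.47 against 0.273 to 0.536, so these neighbours varied more than KRT19. KRT18 is the type I keratin that lies outside this cluster, next to KRT8 among the type II genes of chromosome 12.

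Of 3 further keratins counted with the simple type, KRT80 had a mean of 101 ± 59.5 TPM (SD, n = 4) and the others were low. KRT20, of gut and urothelium and also on the Merkel cell list, had 129 counts (2.94 TPM) in replicate 1 and 0 in replicates 2 to 4, where 3 counts would give 0.185 to 0.250 TPM. KRT23 had 122 counts in replicate 1 and 1 to 5 in the others.

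Which genes followed each member over the 4 libraries was described by the root mean square difference of log2(TPM + 1) profiles centred on their means, among 12164 other protein-coding genes. Nearest to KRT8 were CDK5R1 (0.0083), YDJC (0.0090) and MED26 (0.0276), and nearest to KRT18 were C2CD2L (0.0330), FKBP4 (0.0404) and SLC5A6 (0.0442). Nearest to KRT7 were TIMELESS (0.0181), PAQR4 (0.0185) and RFTN1 (0.0244), and nearest to KRT19 were TSPYL4 (0.0169), TRIM23 (0.0228) and KIAA0232 (0.0237). A profile of 4 points, most of whose range lies between replicate 1 and the rest, is matched by many genes. KRT18 ranked 65 from KRT8 (0.118), and KRT8 ranked 56 from KRT18. KRT7 ranked 1484 from KRT8 (0.367), whereas KRT19 ranked 10337 (1.18). The keratin closest to KRT19 among those looked up was KRT5, the type II basal keratin, at rank 23 (0.0477), a rank read after the values were seen.

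Some reads of the members could belong to other rows. KRT8 and KRT18 lie on opposite strands and overlap by 996 bases on hg19. Of the 1371 windows of 50 bases in the KRT18 transcript, 330 matched the opposite strand of another gene's transcript. So did 16 of the 1706 windows of KRT8 and 177 of the 1705 windows of KRT7. The genes matched on the opposite strand were not recorded. The strand setting of the counting is not given in the sources used here, so reads of KRT18 and KRT8 over their shared bases cannot be told apart. The antisense row within KRT7 (ENSG00000257671.1, chr12:52638832-52641232) had 203, 1291, 860 and 798 counts, 0.386% to 4.56% of those of KRT7.

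Processed pseudogenes of KRT8 and KRT18 are scattered over the genome. Of 50-base windows, 39.7% of the KRT8 and 35.1% of the KRT18 transcript occurred without a mismatch in a transcript of another gene, against 1.79% for KRT19 and 0.997% for KRT7, and at 100 bases 7.25% of KRT8 windows did. The 43 KRT8 pseudogene rows together held 1022, 316, 203 and 165 counts, at most 1.70% of KRT8, led by KRT8P12 (52 to 328 counts), KRT8P3 (46 to 252) and KRT8P46 (7 to 186). The 62 KRT18 pseudogene rows held 42 to 244 counts, at most 1.47% of KRT18, led by KRT18P31 (110 counts in replicate 1 and 0 to 4 in the others), KRT18P4 (3 to 48) and KRT18P5 (4 to 20). Of 3 KRT19 pseudogene rows, KRT19P1 had 16 counts in replicate 1. Adding these counts to the parents gave a KRT8 minus KRT18 of 1.13. Any reads left out of the counts because they matched several places are not covered by this or by the other alternative runs.

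Genes whose products bind or process simple keratins were all detected. Of 14 linkers between keratin filaments and junctions or their regulators, 14 had a mean of at least 1 TPM, from TCHP, which binds KRT8 and KRT18 filaments (18.4 ± 3.53 TPM, SD, n = 4), to JUP, the plakoglobin of desmosomes (983 ± 386). PLEC, the cytolinker plectin, had 45.8, 285, 120 and 279 TPM, and DSP, which anchors keratins at desmosomes, 534, 271, 75.2 and 255. FAM83H, which recruits casein kinase to keratin filaments, had 66.6, 277, 241 and 242 TPM, lowest in replicate 1. Replicate 1 was below every other library for 5 of the 14 and above for 3 (37.4% and 40.2% over all genes). The median log2 difference from the others was -0.35, beside 0.03 over all genes.

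Of 10 chaperones, 14-3-3 proteins and degradation factors known to act on keratins, 10 had a mean of at least 1 TPM, and replicate 1 was below every other library for 8 and above for 1 (37.4% and 40.2% over all genes). HSPA8, the constitutive HSC70, was highest (1302, 2636, 4119 and 2692 TPM) and DNAJB6, a co-chaperone that binds KRT18, lowest (55.3, 82.8, 84.0 and 78.2). HSPB1, the small heat shock protein HSP27, had 476, 1541, 849 and 1528 TPM, and SFN, the epithelial 14-3-3 sigma, 957, 2466, 2076 and 1557. The median difference of replicate 1 from the others was -0.91 for this list, beside 0.03 over all genes.

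TRADD, a death receptor adaptor that binds KRT18, had 67.0, 56.6, 71.9 and 84.8 TPM and was the highest of its list. CASP6, a caspase that cuts KRT18 in the linker, had 18.9, 13.9, 13.5 and 12.4 TPM, and CASP9, an initiator caspase and the lowest of the list, 4.42, 1.55, 1.14 and 2.97. Both were highest in replicate 1, where KRT18 was lowest and where 40.2% of all genes tested were highest.

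Of 18 transcription factors of simple or stratified epithelia, among them the AP-1 and ETS factors known to act on KRT18, 18 had a mean of at least 1 TPM. Replicate 1 was below every other library for 7 and above for 7 (37.4% and 40.2% over all genes). JUNB, an AP-1 subunit, was the highest (282, 349, 333 and 562 TPM) and FOS the lowest (8.92, 5.23, 3.71 and 13.5). JUN had 8.57, 61.7, 60.7 and 46.8 TPM and FOSL1, a further AP-1 subunit, 3.26, 572, 347 and 170, both lowest in replicate 1, as 37.4% of all genes were. ETS2 varied little (37.6, 48.7, 33.6 and 35.9).

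Of 13 other intermediate filament genes, 6 had a mean of at least 1 TPM, led by LMNA, the lamin A/C gene of the nuclear lamina (799 ± 65.7, SD, n = 4, which was below the mean of every member and above KRT18 in replicate 1). VIM, the vimentin of mesenchymal cells, had 3.62, 1.41, 16.6 and 3.58 TPM, and DES, the desmin of muscle, 0 counts in all 4 libraries.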

How the data were processed

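RNA-seq was from 4 HaCaT libraries of 1 group. The authors deposited, per gene, raw counts and a length-corrected value, which per the file headers is RPKM in replicates 1 and 2 and TPM in replicates 3 and 4. The submitters' processing notes name hg19, HISAT2, TopHat2, Bowtie2 and HISAT; versions, the counting program and the annotation are not given in the sources used here. From the counts and deposited lengths, TPM over protein-coding rows was computed in each library (Python 3.11.15, NumPy 2.4.6, SciPy 1.17.1), since the deposited units differ. Levels have means and SDs without a test. Differences of log2(TPM + 1) within a library were tested by two-sided exact sign-flip permutation. Scaling factors came from edgeR 4.0.16 (TMM) and DESeq2 1.42.0 (median of ratios). Transcripts, GC content and sequences came from GENCODE release 29 (GRCh38). No coordinates were converted. Total counts were 17056035 to 73082279, and intervals (95%, Clopper-Pearson) cover counting error only. Named genes were the members, the 10 other keratins with the highest means, the 3 nearest profiles per member, pseudogene and overlapping rows, and of each list the highest, the lowest and those that act on simple keratins. KRT20, VIM, JUN, FOSL1 and ETS2 were named outside this rule, after their values were seen. The members and lists were chosen with earlier results of these data known. The profile and ratio steps were tested on simulated data. P-values rest only on the signs and sizes of the differences in these 4 libraries, and the spread between libraries may be technical. Some items are not reported here.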

Additional observations from a re-analysis of the deposited data

Results flagged for a closer look

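In groups of 4 libraries, a value was set apart where its gap to the nearest other library exceeded Dixon's limit, a set fraction of the whole range, which chance alone gives in about 1 of 20 groups of normally distributed values. Of 70 sets of 4 values examined, 13 held such a value, where that rate gives 3.50 over all libraries. Of the 13, 12 were in replicate 1. The sets overlap and are not independent, and some are of genes named after their values were seen, so the 13 and the 3.50 are not a test. For the members, replicate 1 was low in the sum of KRT8 and KRT7 (2366 TPM against 5377 to 5645) and in the type II share of the members (24.9% against 54.4% to 60.3%). It was high in the ratios of KRT19 to KRT18 (15.1 against 1.55 to 3.07) and of KRT19 to KRT8 (6.12 against 0.692 to 1.52), while no single member's TPM passed the limit.

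Among the other keratins, replicate 1 was high for KRT15 (13064 TPM), KRT13 (9870), KRT4 (2359), KRT10 (229), KRT16 (140), KRT20 (2.94), the sum of the basal keratins (25284 against 8705 to 10761) and the ratio of KRT15 to KRT19 (1.95). VIM was high in replicate 3 (16.6 TPM against 1.41 to 3.62).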

How the results depend on the processing

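KRT8 minus KRT18, KRT7 minus KRT19, KRT19 minus KRT8, KRT7 minus KRT18, KRT19 minus KRT18 and simple minus basal keratins kept the sign of their mean over libraries under each alternative run (TPM over all genes, upper-quartile, TMM and median-of-ratios scaling, no length correction, GENCODE coding and exon-union lengths, pseudogene counts added, pseudocounts of 0.1 and 0, deposited values, and each library left out). Their sizes moved with the gene length. With the exon union, KRT8 minus KRT18 was 0.59, KRT7 minus KRT19 -1.27, KRT19 minus KRT8 1.62 and simple minus basal -0.64, and KRT19 minus KRT8 was 0.07 without length correction. In single libraries the sign did turn. Without length correction KRT19 minus KRT8 was 1.99, -0.56, -1.15 and -0.01 in replicates 1 to 4. With the deposited lengths it was 2.61, 0.06, -0.53 and 0.61. With the exon union it was positive in every library, at 3.55, 1.00, 0.40 and 1.54. KRT7 minus KRT19 was -2.19, -0.06, 0.28 and 0.10 without length correction. With the exon union it was negative in every library, at -2.99, -0.86, -0.52 and -0.71. KRT18 was the lowest member in each library in every alternative run. KRT8 minus KRT7 turned from -0.01 to 0.40 without length correction and to 0.36 with GENCODE coding lengths, and ran from -0.17 to 0.15 with 1 library left out. Type II minus type I turned from -0.11 to 0.30 and 0.074 in the same settings, and ran from -0.35 to 0.38 with 1 library left out, positive only without replicate 1. With the exon union it was -0.78, and -2.32, -0.37, -0.04 and -0.39 in replicates 1 to 4. The mean level of KRT8 was 3702 TPM with the coding length and 797 with the exon union, where KRT18 was at 540.0 and KRT7 at 993. These lengths differ from the deposited ones by construction. The order of the means was shown by 1 library, by 3 with the exon union and by 1 to 2 with 1 library left out, while the order itself became KRT19, KRT7, KRT8, KRT18 with the exon union and without replicate 2 or 3. For the other changes the cause was not tested. The GENCODE lengths were chosen after seeing the data. Lengths from RefSeq proteins were not run, and deposited values gave no mean level or order of means because their units differ. No paired analysis was possible because there is 1 group. With 4 libraries no sign-flip p can go below 0.125, so the p-values say nothing about stability.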
